A study of Mus musculus with 12 samples.

Results

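The RNAs of 9 genes that carry interferon signals into the cell were followed in cultured smooth muscle cells of the mouse aorta. They code for the receptor chains Ifngr1, Ifngr2, Ifnar1 and Ifnar2, the Janus kinases Jak1, Jak2 and Tyk2, and the transcription factors Stat2 and Irf9. They were taken from the table of estimated counts by matching Ensembl identifiers, without their version, to these mouse symbols, and all 9 were found among 55822 identifiers. The cells had been kept in 1 of 3 media, with 4 libraries each. The first, IFNγ/LPS CM, was medium conditioned by bone marrow-derived macrophages that had received 20 ng/mL interferon gamma overnight and 100 ng/mL lipopolysaccharide for 4 h and had then been washed. The second, naive CM, was medium conditioned by macrophages without that treatment. In both, macrophages conditioned fresh medium with 0.3% serum and 10 ng/mL of the macrophage growth factor M-CSF for 24 h, and smooth muscle cells starved for 48 h in 0.3% serum were exposed to it for 24 h. The third was regular medium, and the labels used here do not say whether cells in it were starved or given M-CSF. No genotype, strain or age was given in the sources used here. The titles number the libraries of a group as biological replicates without stating whether each was its own animal, cell isolation or culture well, so a p-value here reflects library-to-library spread alone.

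Interferon gamma, the type II interferon, binds a receptor made of IFNGR1 and IFNGR2, to which the kinases JAK1 and JAK2 are attached. Type I interferons such as interferon beta bind IFNAR1 and IFNAR2, which work through TYK2 and JAK1, and their signal assembles ISGF3, a transcription factor complex that contains STAT2 and IRF9 and binds the interferon-stimulated response element (ISRE) of antiviral genes. Interferon gamma acts mainly through a separate element, the gamma-activated site (GAS). In arteries, interferon gamma is known to slow the growth of smooth muscle cells and to make them display MHC class II molecules.

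The promoters of 3 of the genes are shown because these genes had 3 of the 4 largest rises after IFNγ/LPS CM and differ in the motif letters found near their start. Irf9, the other of these 4, is not shown, and neither motif was found in its stretches searched. Each line is the 250 bases before the start in RefSeq on build GRCm38.p6, plus strand, 5′ to 3′. Capitals mark a match to an ISRE core (GAAA, any 2 bases, GAAA, read on either strand, so also TTTC, any 2 bases, TTTC) or a GAS core (TTCNNNGAA, with N any base, the same on both strands). The first is Stat2 at chr10:128270248-128270497, with an ISRE core. The second is Ifnar2 at chr16:91372533-91372782, with a GAS core. The third is Jak2 at chr19:29251553-29251802, with neither.
Stat2: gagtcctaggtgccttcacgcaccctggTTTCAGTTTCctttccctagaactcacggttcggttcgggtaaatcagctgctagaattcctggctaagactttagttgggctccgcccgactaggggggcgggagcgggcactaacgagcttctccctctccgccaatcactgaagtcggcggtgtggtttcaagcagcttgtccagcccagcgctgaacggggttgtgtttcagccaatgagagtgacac
Ifnar2: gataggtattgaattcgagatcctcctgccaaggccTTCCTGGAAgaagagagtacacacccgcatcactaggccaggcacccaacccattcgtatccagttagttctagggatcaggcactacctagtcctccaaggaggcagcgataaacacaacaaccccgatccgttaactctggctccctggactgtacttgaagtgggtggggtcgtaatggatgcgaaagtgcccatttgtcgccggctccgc
Jak2: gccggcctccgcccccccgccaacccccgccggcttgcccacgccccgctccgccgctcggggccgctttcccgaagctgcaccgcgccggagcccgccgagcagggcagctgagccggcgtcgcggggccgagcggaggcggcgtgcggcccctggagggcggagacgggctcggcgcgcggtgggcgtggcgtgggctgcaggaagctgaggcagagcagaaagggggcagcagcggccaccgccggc
All 9 genes matched 10 RefSeq windows of 300 bases, from 250 before to 50 after the start, with 2 windows for Irf9. The ISRE core was in 1 of the 10, that of Stat2, at bases -222 to -213 from the start, and in 3.44% of all 32851 windows. The GAS core was in 2 of the 10 and in 8.30% of all windows. It lay at -214 to -206 in Ifnar2, and in Ifnar1 it spanned the start itself, as TTCACGGAA from -5 to 3. The windows of Jak2, Jak1, Tyk2, Irf9, Ifngr1 and Ifngr2 held neither, which says only that these letters are not in these windows. Both Irf9 windows, chr14:55603735-55604034 and chr14:55604329-55604628, lie inside the gene as annotated in GENCODE, chr14:55603571-55610030. The bases before that annotated start of Irf9 were therefore not searched. The Jak2 window had 81.0% G and C. Among windows of the 20 listed target genes of each interferon pathway described further on, the ISRE core was in 8 of 16 windows of ISGF3 targets and in 9 of 18 windows of interferon gamma targets, and the GAS core in 3 of 16 and in 7 of 18. The cores do not overlap in these 9 genes, and a match is a string of letters, not a measured binding site.

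Of the 9 genes, 9 had more RNA in IFNγ/LPS CM than in naive CM, all 9 having passed the filter on low counts, and 4 of them, Stat2, Jak2, Irf9 and Ifnar2, by 2-fold or more. The comparison asks how the medium of interferon-treated and lipopolysaccharide-treated macrophages acts on smooth muscle cells beyond that of untreated macrophages. In the same test (edgeR quasi-likelihood, Benjamini-Hochberg adjusted p under 0.05), 36.1% of the 16140 genes tested were higher and 13.9% were higher by 2-fold or more. The groups did not overlap in 9 of the 9 genes, against 34.9% of all genes higher without overlap. The median log2 fold change was 0.97 over the 9 genes and 0.00390 over all genes. Against regular medium, 9 of 9 genes were again higher, 4 by 2-fold or more, where 35.4% and 13.7% of all genes were, and the groups did not overlap in 8 of the 9, against 32.5% of all genes. Both comparisons use the same IFNγ/LPS CM libraries, so they are not independent. Levels are given as CPM, counts per 1000000 of each library's TMM-scaled total. TMM scaling evens out the bulk of the genes between libraries. In bulk RNA, a change in the number of cells of a kind and a change in RNA per cell cannot be told apart. Summed over the 9 genes, IFNγ/LPS CM libraries had 2228 to 2304 CPM, naive CM libraries 704 to 709 CPM and regular medium libraries 691 to 720 CPM.

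**Figure D1:**
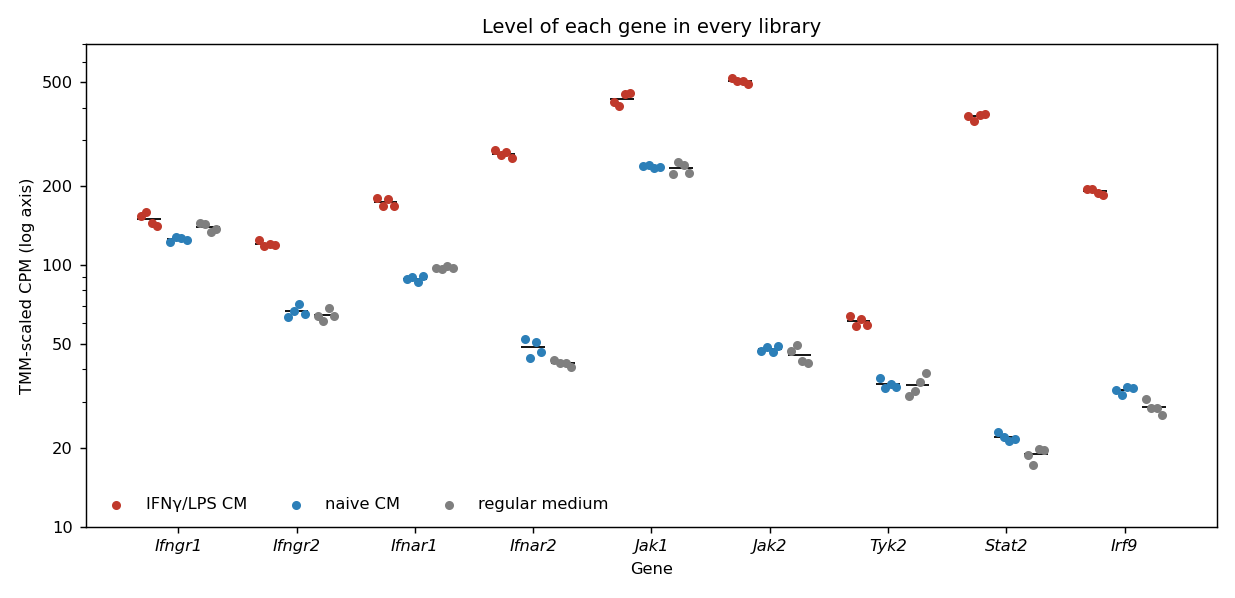
Level of the 9 genes in TMM-scaled CPM on a log axis, 1 point per library (4 per medium) and a bar at each mean, for IFNγ/LPS CM, naive CM and regular medium. Stat2, Jak2, Irf9 and Ifnar2 stand far above both other media in IFNγ/LPS CM, Ifngr1 lies close in all 3, and naive CM and regular medium lie close for every gene.

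Among the 4 interferon receptor chains, Ifnar2 rose most. This gene, which codes for the chain that binds type I interferons with high affinity, lies at chr16:91372783-91405589 on the plus strand (ENSMUSG00000022971; GRCm38, GENCODE M21). It had 276, 264, 270.1 and 257 CPM in IFNγ/LPS CM, 52.2, 44.3, 51.0 and 46.6 CPM in naive CM, and 43.5, 42.2, 42.1 and 40.7 CPM in regular medium. Every IFNγ/LPS CM library was above every other library. The log2 fold change against naive CM was 2.46 ± 0.050 (SE; 5.50-fold, edgeR adjusted p = 4.36e-19) and against regular medium 2.66 (6.33-fold, edgeR adjusted p = 1.35e-19). Its partner Ifnar1 (ENSMUSG00000022967), at chr16:91485238-91507441 on the plus strand, had 180.2, 168, 179 and 169 CPM in IFNγ/LPS CM, 88.7, 89.9, 86.1 and 90.5 CPM in naive CM, and 97.7, 97.0, 99.4 and 97.2 CPM in regular medium. Ifnar1 was thus higher without overlap, by a log2 fold change of 0.97 ± 0.037 against naive CM (1.96-fold, edgeR adjusted p = 9.84e-15) and 0.83 against regular medium (1.78-fold, edgeR adjusted p = 1.08e-13).

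The chains of the interferon gamma receptor rose less, and by unequal amounts. Ifngr2 (ENSMUSG00000022965, chr16:91547072-91565623, plus strand), the signal-transducing chain, had 125, 118, 120.3 and 119.7 CPM in IFNγ/LPS CM, 63.5, 67.0, 71.0 and 65.0 CPM in naive CM, and 63.9, 61.2, 68.7 and 63.7 CPM in regular medium. The IFNγ/LPS CM libraries lay apart above the rest, with a log2 fold change of 0.86 ± 0.044 against naive CM (SE; 1.82-fold, edgeR adjusted p = 1.13e-12) and 0.91 against regular medium (1.88-fold, edgeR adjusted p = 4.71e-13). Ifngr1 (ENSMUSG00000020009, chr10:19591949-19610229, plus strand), the ligand-binding chain, had 154, 159, 145 and 141 CPM in IFNγ/LPS CM, 123, 128, 127 and 125 CPM in naive CM, and 145, 143, 134 and 137 CPM in regular medium. Against naive CM the groups did not overlap, and the log2 fold change was 0.25 ± 0.042 (1.19-fold, edgeR adjusted p = 2.73e-05). Against regular medium they overlapped, and the log2 fold change was 0.10 ± 0.042 (1.07-fold, edgeR adjusted p = 0.0441). That call was lost in 3 other fits and without any of 7 libraries, for example without IFNγ/LPS CM replicate 2 (edgeR adjusted p = 0.171).

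The direction of Ifngr1 depended on how libraries were scaled. When each library was divided by its total in place of the TMM scaling, Ifngr1 changed direction. Its log2 fold change was -0.14 against naive CM and -0.29 against regular medium, both past the test as lower. The other 8 genes stayed higher, but by smaller log2 fold changes. Against naive CM these fell to 0.41 for Tyk2, 0.47 for Jak1, 0.47 for Ifngr2 and 0.58 for Ifnar1. That scaling moved the median of all genes to -0.38 against naive CM and -0.41 against regular medium. Relative to those medians, Ifngr1 was at 0.25 and at 0.12. The mean TMM factor was 0.836 in IFNγ/LPS CM and 1.09 in each of the other media.

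Among the kinases, Jak2 rose far more than its relatives. Jak2 (ENSMUSG00000024789, chr19:29251828-29313080, plus strand), which is attached to IFNGR2, had 517, 504, 507 and 494 CPM in IFNγ/LPS CM, 47.1, 48.5, 46.4 and 48.9 CPM in naive CM, and 46.9, 49.6, 43.0 and 42.3 CPM in regular medium. The lowest IFNγ/LPS CM library was far above the highest of the others. The log2 fold change was 3.40 ± 0.049 against naive CM (SE; 10.6-fold, edgeR adjusted p = 2.51e-21) and 3.47 against regular medium (11.1-fold, edgeR adjusted p = 1.76e-21). Jak1 (ENSMUSG00000028530, chr4:101152367-101265282, minus strand), which serves both receptor types, had 421, 404, 449 and 454 CPM in IFNγ/LPS CM, 239.8, 241, 236 and 238 CPM in naive CM, and 224, 247, 241 and 225 CPM in regular medium. It was higher without overlap, by 0.86 ± 0.044 on the log2 scale against naive CM (1.81-fold, edgeR adjusted p = 1.29e-12) and by 0.88 against regular medium (1.84-fold, edgeR adjusted p = 8.02e-13).

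Tyk2 (ENSMUSG00000032175, chr9:21104068-21131243, minus strand), the kinase attached to IFNAR1, had 63.7, 58.7, 62.0 and 59.3 CPM in IFNγ/LPS CM, 36.9, 33.9, 35.3 and 34.4 CPM in naive CM, and 31.7, 32.9, 35.8 and 38.8 CPM in regular medium. All 4 IFNγ/LPS CM libraries were above the other 8. The log2 fold change was 0.80 ± 0.058 against naive CM (SE; 1.74-fold, edgeR adjusted p = 2.53e-10) and 0.81 against regular medium (1.75-fold, edgeR adjusted p = 2.01e-10).

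The 2 ISGF3 genes rose together, Stat2 more than any other of the 9. Stat2 (ENSMUSG00000040033, chr10:128270559-128292849, plus strand), the subunit that brings the transactivation domain to ISGF3, had 372, 356, 375 and 379 CPM in IFNγ/LPS CM, 23.1, 22.0, 21.3 and 21.7 CPM in naive CM, and 18.9, 17.3, 19.9 and 19.7 CPM in regular medium. The log2 fold change was 4.07 ± 0.049 against naive CM (SE; 16.8-fold, edgeR adjusted p = 1.43e-22) and 4.30 against regular medium (19.6-fold, edgeR adjusted p = 7.71e-23). Of the 16140 genes tested, 475 had a larger log2 fold change against naive CM than Stat2, 600 a larger one than Jak2, and 876 a larger one than Irf9. Irf9 (ENSMUSG00000002325, chr14:55603571-55610030, plus strand), the DNA-binding subunit, had 195, 196, 189 and 185 CPM in IFNγ/LPS CM, 33.3, 32.0, 34.2 and 34.0 CPM in naive CM, and 30.9, 28.5, 28.4 and 26.8 CPM in regular medium. The log2 fold change was 2.52 ± 0.046 against naive CM (5.74-fold, edgeR adjusted p = 7.95e-20) and 2.74 against regular medium (6.67-fold, edgeR adjusted p = 2.41e-20). For both genes the IFNγ/LPS CM libraries were well clear of all others. The end of Rnf31 overlaps the start of Irf9 on the same strand, with 9565 counts summed over IFNγ/LPS CM, 3982 over naive CM and 4181 over regular medium, so part of the reads at that end could be given to either gene.

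**Figure D2:**
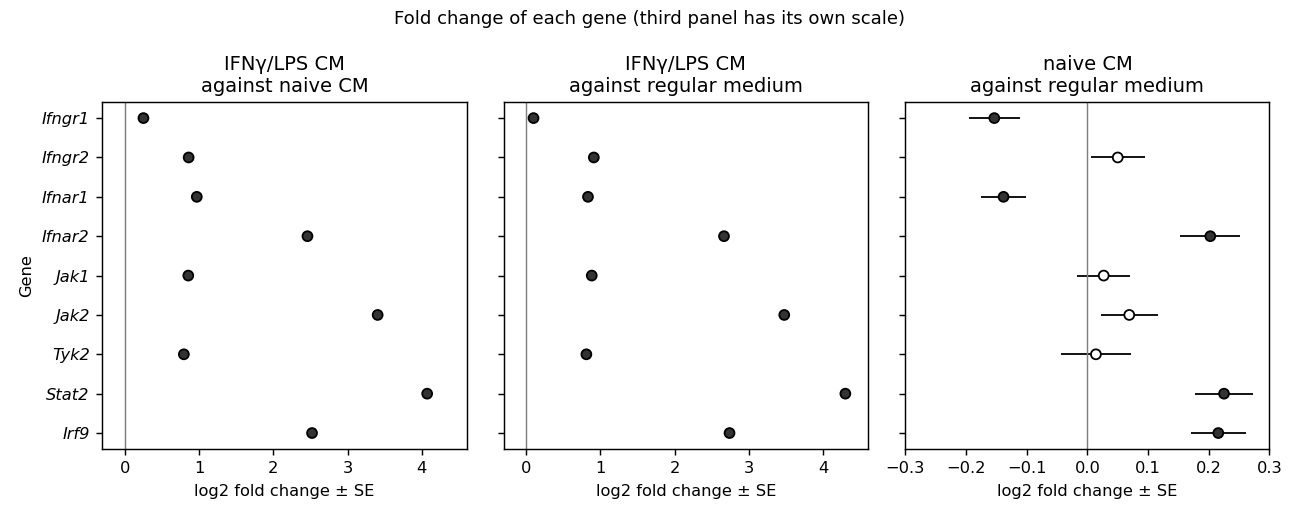
Log2 fold change of each gene with its SE (bars, narrower than the points in the left panels), for IFNγ/LPS CM against naive CM (left), IFNγ/LPS CM against regular medium (middle) and naive CM against regular medium (right, on its own scale). Filled points passed the adjusted p threshold; Stat2 reaches 4.07 and 4.30 in the left panels, and no gene passes 0.23 in the right one.

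These genes differed little between naive CM and regular medium. Cells in naive CM had been starved in 0.3% serum and received M-CSF, which the labels do not state for regular medium. Effects of these and of macrophage products therefore cannot be told apart here. In naive CM against regular medium, 3 of the 9 genes rose, 2 fell and 4 missed the threshold. Of all genes, 18.3% were higher and 16.4% lower. None of the 9 changed by 2-fold, as 2.87% of all genes did upward and 0.948% downward. The genes that were higher were 3 of the 4 that rose most in IFNγ/LPS CM. Stat2 averaged 22.0 ± 0.768 CPM in naive CM and 18.9 ± 1.18 CPM in regular medium (SD, n = 4 each; log2 fold change 0.23 ± 0.048, edgeR adjusted p = 0.00116). Irf9 averaged 33.4 ± 1.00 CPM in naive CM and 28.7 ± 1.68 CPM in regular medium (0.22 ± 0.046, edgeR adjusted p = 0.00113). Ifnar2 averaged 48.5 ± 3.72 CPM in naive CM and 42.1 ± 1.13 CPM in regular medium (0.20 ± 0.049, edgeR adjusted p = 0.00338). Both genes that were lower code for receptor chains. Ifngr1 averaged 126 ± 2.50 CPM in naive CM and 139.9 ± 5.14 CPM in regular medium (log2 fold change -0.15 ± 0.042, edgeR adjusted p = 0.00837). Ifnar1 averaged 88.8 ± 1.96 CPM in naive CM and 97.8 ± 1.11 CPM in regular medium (-0.14 ± 0.037, edgeR adjusted p = 0.00668). In each of these 5 genes the groups did not overlap, as in 17.2% of all genes on the higher side and 15.5% on the lower. Jak2, the gene with the second-largest rise in IFNγ/LPS CM, had a log2 fold change of 0.07 that did not pass (edgeR adjusted p = 0.279), and those of Ifngr2 (0.05), Jak1 (0.03) and Tyk2 (0.01) did not pass either.

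Because most partners rose by unequal amounts, most proportions between them differed between IFNγ/LPS CM and the other media. A ratio of counts within a library does not depend on how libraries are scaled. It also depends on gene length, so a value near 1 does not mean equal numbers of molecules. Of 6 ratios, 5 differed between IFNγ/LPS CM and naive CM, 5 between IFNγ/LPS CM and regular medium and 2 between naive CM and regular medium. Each that differed had the smallest p that 4 against 4 libraries allow (exact two-sided permutation test on the log2 ratios, p = 0.0286, adjusted p = 0.0429 over 18 tests). That adjusted p is under 0.05 only because most of the 18 tests share the smallest p. The ratios use the same counts as the fold changes above, so they are not separate support.

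For the type I receptor, the Ifnar1 to Ifnar2 ratio was 0.653, 0.638, 0.663 and 0.657 in IFNγ/LPS CM, 1.70, 2.03, 1.69 and 1.94 in naive CM, and 2.25, 2.30, 2.36 and 2.39 in regular medium. The order of the chains in counts was thus turned round, with Ifnar2 the higher in IFNγ/LPS CM and Ifnar1 the higher in both other media. In naive CM that order depends on the length used. Per kilobase of all exons joined, Ifnar1 averaged 14.95 ± 0.33 CPM there and Ifnar2 14.58 ± 1.12 CPM (SD), which is no clear order. The log2 difference was -1.49 against naive CM and -1.83 against regular medium, and -0.34 between naive CM and regular medium. For the type II receptor, the Ifngr1 to Ifngr2 ratio averaged 1.24 ± 0.0729 in IFNγ/LPS CM, 1.89 ± 0.0663 in naive CM and 2.18 ± 0.169 in regular medium (SD, n = 4 each). Its log2 differences were -0.61, -0.81 and -0.20 in the same order of comparisons, all 3 without overlap. Between the receptors, the Ifnar2 to Ifngr2 ratio averaged 2.21 ± 0.0444 in IFNγ/LPS CM, 0.730 ± 0.0668 in naive CM and 0.655 ± 0.0352 in regular medium. The difference between naive CM and regular medium missed the threshold (exact permutation p = 0.0857, adjusted p = 0.119).

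For the kinases, the Jak2 to Jak1 ratio was 1.23, 1.25, 1.13 and 1.09 in IFNγ/LPS CM, 0.196, 0.201, 0.197 and 0.205 in naive CM, and 0.209, 0.200, 0.179 and 0.188 in regular medium. Jak2 counts exceeded Jak1 counts in every IFNγ/LPS CM library and in no other, with a log2 difference of 2.55 against naive CM and 2.60 against regular medium. The Tyk2 to Jak1 ratio overlapped in all 3 media, at 0.141 ± 0.00899 in IFNγ/LPS CM, 0.147 ± 0.00574 in naive CM and 0.149 ± 0.0169 in regular medium. Its log2 difference of IFNγ/LPS CM against naive CM was -0.06 (exact permutation p = 0.343, adjusted p = 0.441). For ISGF3, the Irf9 to Stat2 ratio averaged 0.517 ± 0.0270 in IFNγ/LPS CM, 1.52 ± 0.0816 in naive CM and 1.52 ± 0.146 in regular medium. The log2 difference was -1.55 against each of the other media, with Stat2 counts above Irf9 counts only in the 4 IFNγ/LPS CM libraries.

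**Figure D3:**
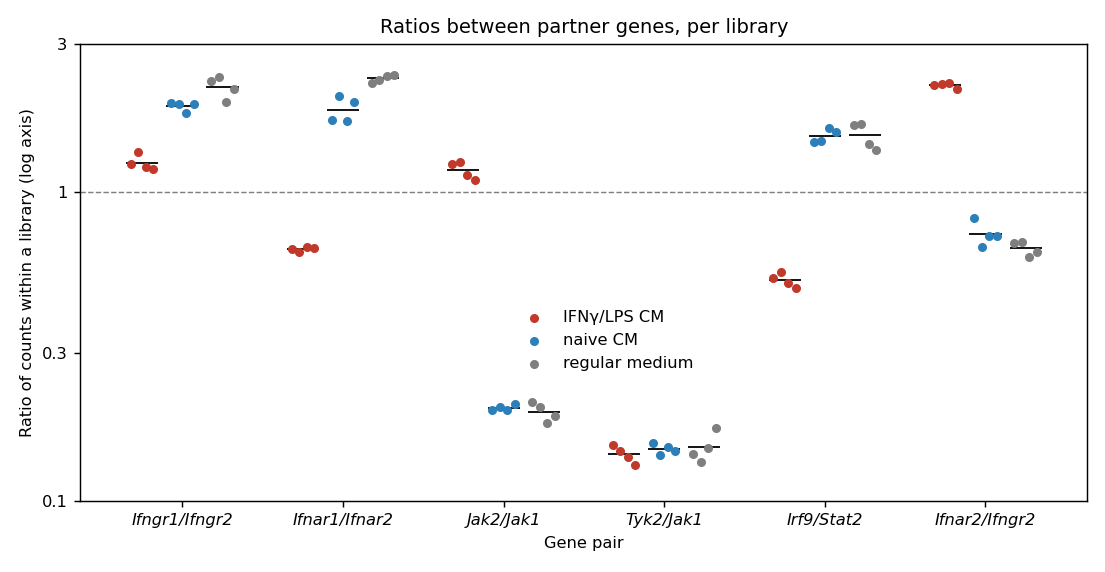
Ratio of counts between partner genes within each library, on a log axis, with 1 point per library, a bar at each mean and a dashed line at 1, for IFNγ/LPS CM, naive CM and regular medium. Ratios cross 1 in IFNγ/LPS CM for Ifnar1 to Ifnar2, Jak2 to Jak1, Irf9 to Stat2 and Ifnar2 to Ifngr2, and overlap in the 3 media for Tyk2 to Jak1.

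Levels of the 9 genes were compared with each other as CPM per kilobase, using the length of the transcript with the longest coding sequence. In regular medium the order, high to low, was Ifngr1 at 66.3, Jak1 at 47.7, Ifnar1 at 25.0, Ifngr2 at 17.4, Ifnar2 at 13.8, Irf9 at 9.69, Jak2 at 9.03, Tyk2 at 7.21 and Stat2 at 4.30 CPM per kilobase. Irf9 and Jak2 overlapped there. In naive CM the order was the same, at 59.6 for Ifngr1, 48.6 for Jak1, 22.7 for Ifnar1, 17.97 for Ifngr2, 15.9 for Ifnar2, 11.3 for Irf9, 9.49 for Jak2, 7.27 for Tyk2 and 5.01 CPM per kilobase for Stat2, with Ifngr2 and Ifnar2 overlapping. In IFNγ/LPS CM the order was Jak2 at 100.5, Jak1 at 88.0, Ifnar2 at 87.5, Stat2 at 84.2, Ifngr1 at 71.0, Irf9 at 64.6, Ifnar1 at 44.5, Ifngr2 at 32.6 and Tyk2 at 12.6 CPM per kilobase. Jak1, Ifnar2 and Stat2 overlapped with their neighbours in that order. Stat2, which is last in both other media, thus stood among the upper 4, and Ifngr1, which is first there, stood below 4 others. With the length of all exons joined in place of a transcript, Jak2 was still first and Tyk2 last in IFNγ/LPS CM, and Ifngr1 first, Jak1 second and Stat2 last in both other media, while places between them changed. These levels span ratios of highest to lowest mean CPM of 8.30 in IFNγ/LPS CM, 10.8 in naive CM and 12.4 in regular medium before division by length.

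Of the 9 genes, 3 lie side by side on chromosome 16 in a cluster of cytokine receptor genes, and they did not move alike. From left to right the cluster holds Ifnar2, Il10rb, Ifnar1 and Ifngr2, all on the plus strand, over 192841 bases. Against naive CM, the log2 fold changes in IFNγ/LPS CM were 2.46 for Ifnar2, 0.97 for Ifnar1 and 0.86 for Ifngr2. Il10rb, which codes for a chain shared by the receptors of IL-10, IL-22 and the lambda interferons, begins 575 bases after the end of Ifnar2. It averaged 61.3 ± 6.47 CPM in IFNγ/LPS CM and 44.7 ± 2.09 CPM in naive CM, a log2 fold change of 0.46 (edgeR adjusted p = 2.05e-06) that was not past the test when libraries were scaled by their totals (0.07, edgeR adjusted p = 0.310). Tmem50b, 8880 bases beyond Ifngr2 and on the minus strand, was lower, at 13.7 ± 0.366 CPM in IFNγ/LPS CM and 38.1 ± 0.537 CPM in naive CM (log2 fold change -1.47, edgeR adjusted p = 1.45e-15). On the other side of Ifnar2, Paxbp1 had a log2 fold change of -0.02 (edgeR adjusted p = 0.799). The annotated gene Gm21970, on the same strand, starts inside Ifnar2 and ends inside Il10rb, with 525, 587, 3 and 224 counts in IFNγ/LPS CM, 0, 396, 0 and 0 in naive CM and none in regular medium, so reads of either gene could be assigned to it.

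**Figure D4:**
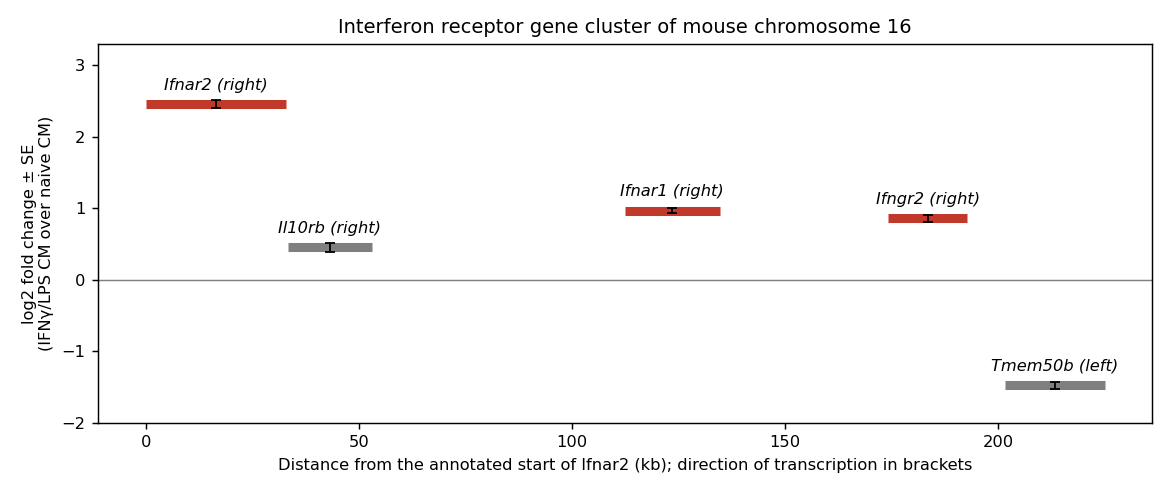
The receptor cluster of mouse chromosome 16, with each gene as a bar at its distance in kb from the start of Ifnar2 and at the height of its log2 fold change in IFNγ/LPS CM against naive CM (error bars, SE). The 3 genes studied are red and neighbours grey; the change is 2.46 at Ifnar2, 0.46 at Il10rb next to it and -1.47 at Tmem50b.

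Outside the cluster, neighbours of the other 6 genes were followed in IFNγ/LPS CM against naive CM. On each side this was the nearest tested protein-coding gene that did not overlap the gene itself. Rnf31, which overlaps the start of Irf9 and lies nearer to it than Psme2, was thus left out. Of these 12 neighbours, 9 rose, 1 fell and 2 missed the threshold, where 36.1% of all genes rose and 35.8% fell. Scaling by library totals moved the median of all genes to -0.38, and the neighbours' changes under it are not given. Beside Stat2, at 4.07, Apon had a log2 fold change of 3.16 on the left, at under 1 CPM in both media, and Pan2 had 0.52 on the right. Beside Jak2, at 3.40, Rcl1 had 1.31, and Insl6, also under 1 CPM, had -0.71 and missed the threshold (edgeR adjusted p = 0.0536). Beside Irf9, at 2.52, Psme2, a proteasome activator gene 12458 bases away, had 2.75, and Ipo4 had 0.33. Beside Jak1, at 0.86, Ak4, an adenylate kinase gene 153995 bases away, had 4.95, and Cachd1 had 0.92. Beside Ifngr1, at 0.25, Tnfaip3, an inhibitor of NF-κB signalling 576292 bases away, had 2.86, and Pex7 had 0.46. Beside Tyk2, at 0.80, Cdc37, a chaperone gene 1979 bases away, was the neighbour that fell (-0.24, edgeR adjusted p = 0.00336), and Raver1, at 0.20, missed the threshold (edgeR adjusted p = 0.261).

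For each of the 9 genes, the genes with the most similar pattern were those at the smallest distance in log2 CPM over the 12 libraries, after each gene was centred on its own mean, among 10278 genes. Nearest to Stat2 were Helz2 (distance 0.24), Bnip3 (0.34) and Parp12 (0.35). Nearest to Jak2 were Erap1 (0.31), which codes for a peptidase that trims antigen peptides, Ereg (0.31) and Trim12c (0.31). Lrig1 and Snx10 were the 2 nearest to Irf9 (0.25 and 0.29) and also to Ifnar2 (0.30 and 0.28). Nearest to Ifngr2 was Xpo6 (0.17), to Ifnar1 Odc1 (0.14), to Jak1 Fer (0.14), to Tyk2 Cabin1 (0.21) and to Ifngr1 Chmp2b (0.14). A distance over 12 libraries in 3 groups mostly ranks genes by their 3 group means.

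RNA of the interferons themselves was almost absent from the smooth muscle libraries. Of 20 interferon genes listed, 16 had no count in any of the 12 libraries, among them Ifng. A count of 0 over the 4 libraries of a group allows up to 0.0177 CPM in IFNγ/LPS CM, 0.0164 CPM in naive CM and 0.0160 CPM in regular medium (3 counts, counting error only). Ifnb1, interferon beta, had 5 counts over IFNγ/LPS CM and none in the other media. Only Ifnz was abundant enough to test, with 106 counts over IFNγ/LPS CM and 55 over naive CM. Its mean was 0.753 ± 0.266 CPM in IFNγ/LPS CM and 0.256 ± 0.113 CPM in naive CM (log2 fold change 1.47, edgeR adjusted p = 0.00281), and the comparison with regular medium missed the threshold (edgeR adjusted p = 0.113).

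Relatives of the 9 genes, that is other cytokine receptor chains, JAKs and STATs, rose in part. Of 22 listed, 17 were tested, of which 13 rose, 3 fell and 1 missed the threshold against naive CM, where 36.1% of all genes rose and 35.8% fell. Their median log2 fold change was 0.74. Il13ra1, a chain of the receptor for IL-4 and IL-13, averaged 677 ± 30.4 CPM in IFNγ/LPS CM and 21.2 ± 0.792 CPM in naive CM (31.9-fold, edgeR adjusted p = 7.50e-23). Osmr, the oncostatin M receptor, averaged 854 ± 26.7 CPM in IFNγ/LPS CM and 88.2 ± 1.75 CPM in naive CM (9.68-fold, edgeR adjusted p = 2.06e-22). Lifr, the receptor for leukemia inhibitory factor, averaged 82.5 ± 2.21 CPM in IFNγ/LPS CM and 9.32 ± 0.502 CPM in naive CM (8.81-fold, edgeR adjusted p = 8.81e-17). Ifnlr1, the chain that binds lambda interferons, was lower, at 3.17 ± 0.353 CPM in IFNγ/LPS CM and 4.23 ± 0.157 CPM in naive CM (log2 fold change -0.42, edgeR adjusted p = 0.00274). Il11ra1 (-0.48) and Stat5a (-0.37) were also lower. Against regular medium, 11 rose, 4 fell and 2 missed the threshold, where 35.4% of all genes rose and 36.4% fell. With no filter on low counts, 6 fell against naive CM, where 6244 of the 29446 genes then tested fell.

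Brakes on the pathway moved in both directions. All 18 listed were tested, and 10 rose, 4 fell and 4 missed the threshold in IFNγ/LPS CM set against naive CM, with a median log2 fold change of 0.16, where 36.1% of all genes rose and 35.8% fell. Scaled by library totals, 5 rose and 10 fell, where 20.3% of all genes rose and 58.1% fell. Usp18, which binds IFNAR2 and dampens type I signalling, averaged 475 ± 30.9 CPM in IFNγ/LPS CM and 0.939 ± 0.226 CPM in naive CM (490-fold, edgeR adjusted p = 2.69e-18). Socs1, which inhibits the JAKs, averaged 90.7 ± 3.32 CPM in IFNγ/LPS CM and 0.593 ± 0.0356 CPM in naive CM (151-fold, edgeR adjusted p = 1.23e-22). Cish, a relative of the SOCS genes, averaged 21.5 ± 2.86 CPM in IFNγ/LPS CM and 0.982 ± 0.206 CPM in naive CM (22.0-fold, edgeR adjusted p = 2.25e-09). Socs2, known for limiting growth hormone signalling, was lower, at 10.3 ± 0.246 CPM in IFNγ/LPS CM and 51.4 ± 1.59 CPM in naive CM (log2 fold change -2.32, edgeR adjusted p = 7.15e-19). Pias3 (-0.36) and Pias2 (-0.23) were also lower.

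The listed genes that the pathway is known to switch on had mostly larger fold changes than its components. The lists were chosen with earlier results of these data known, so a full count of rises is not support by itself. All 20 listed ISGF3 target genes were higher in IFNγ/LPS CM than in naive CM, with a median log2 fold change of 7.62 and a range of 3.62 to 15.02, against 0.25 to 4.07 for the 9 genes. In that comparison 36.1% of all genes were higher, and 13.9% by 2-fold or more. A fold change depends on the starting level. In naive CM these targets averaged 0.0203 to 95.8 CPM, and the 9 genes 22.0 to 239 CPM. Cmpk2, a nucleotide kinase gene, averaged 585 ± 12.1 CPM in IFNγ/LPS CM and 0.445 ± 0.101 CPM in naive CM, and Rsad2, which codes for the antiviral enzyme viperin, averaged 1250 ± 26.1 CPM in IFNγ/LPS CM and 0.0346 ± 0.0268 CPM in naive CM. All 20 listed interferon gamma target genes were higher too, with a median of 8.04. Usp18 and Socs1 each stand in 2 of the lists, as a brake and as a target. Of these, Cxcl10, a chemokine that attracts T cells, had 893622 counts over IFNγ/LPS CM and 17 over naive CM, and Cxcl9 had 93746 counts over IFNγ/LPS CM and none over naive CM. In naive CM against regular medium, 10 of the 20 ISGF3 targets rose, 3 fell and 7 missed the threshold (median 0.53), and 9 of the 20 interferon gamma targets rose, 1 fell and 10 missed it (median 0.16). Of all genes, 18.3% rose and 16.4% fell in that comparison, so the shares of the lists that fell were no larger than among all genes.

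**Figure D5:**
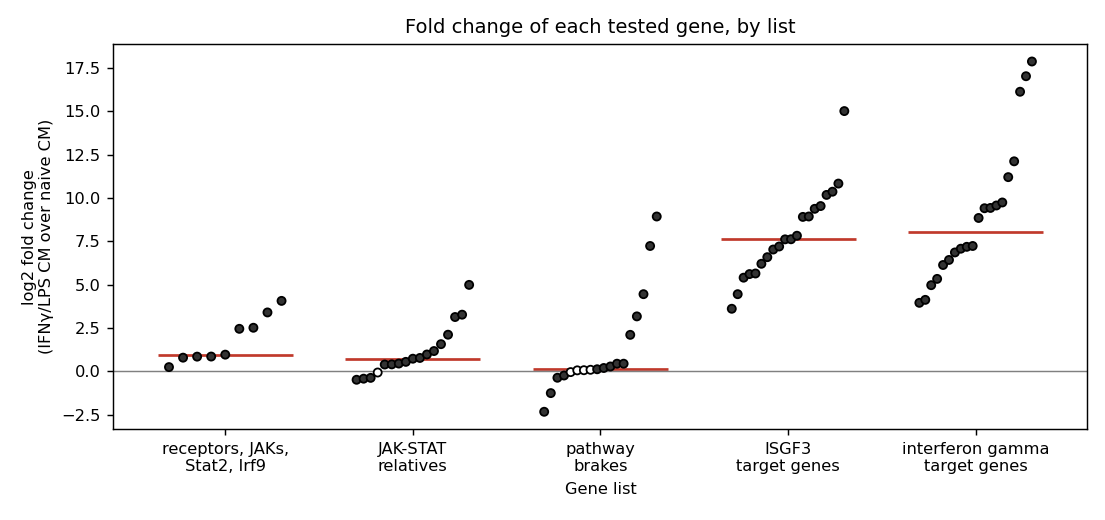
Log2 fold change in IFNγ/LPS CM against naive CM of every tested gene, 1 point per gene in 5 lists, with a red line at each median; filled points passed the adjusted p threshold. The 9 receptor, kinase and ISGF3 genes lie between 0.25 and 4.07 and the target genes between 3.62 and 17.87; the fitted changes of Cxcl9 and Gbp4, which had no count in naive CM, depend on the model and are not sizes.

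The libraries had totals of 40270540 to 44607657 counts in IFNγ/LPS CM, 28542613 to 56323683 in naive CM and 28097496 to 61493375 in regular medium, and the 9 genes had 603 to 19227 counts per library. Across all genes the IFNγ/LPS CM libraries lay apart from the other 8 along a first principal component with 85.0% of the variance. The labelled cell type was checked against its markers. Summed over 10 smooth muscle markers, levels were 257 to 278 CPM in IFNγ/LPS CM, 786 to 878 CPM in naive CM and 1172 to 1303 CPM in regular medium. Cald1 and Acta2 made up most of each sum. Of the 10, 0 rose, 8 fell and 2 missed the threshold in IFNγ/LPS CM against naive CM. In that comparison 36.1% of all genes rose and 35.8% fell, which also stands beside the other marker counts. Myh11, a defining marker of contractile cells, was at 0.203 CPM in IFNγ/LPS CM, 0.592 CPM in naive CM and 0.716 CPM in regular medium. Cnn1 and Des also averaged under 1 CPM in every medium. Summed over 15 macrophage markers, levels were 58.7 to 69.7 CPM in IFNγ/LPS CM, 33.1 to 36.6 CPM in naive CM and 33.5 to 35.3 CPM in regular medium, and of the 5 tested, 4 rose and 1 fell in IFNγ/LPS CM when set against naive CM. Those that rose were Csf1r, at 4.62 CPM in IFNγ/LPS CM and 0.203 CPM in naive CM, Cd68, at 6.19 CPM in IFNγ/LPS CM and 1.07 CPM in naive CM, Lyz2, at 0.472 CPM in IFNγ/LPS CM and 0.0785 CPM in naive CM, and Cd14, at 42.9 CPM in IFNγ/LPS CM and 18.7 CPM in naive CM. Mertk fell, at 10.4 CPM in IFNγ/LPS CM and 14.6 CPM in naive CM. In the other media Csf1r averaged at most 0.203 CPM and Lyz2 at most 0.0990 CPM. Both may thus have passed the filter on low counts only through IFNγ/LPS CM. The count of macrophage markers that rose is therefore not that of an unselected set. Fcgr1 and C1qa had no count in any library, and Ptprc averaged at most 0.0123 CPM in any medium.

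Summed over 8 endothelial markers, levels were 2.54 to 3.39 CPM in IFNγ/LPS CM, 1.46 to 1.73 CPM in naive CM and 1.17 to 1.94 CPM in regular medium. Of the 4 tested against naive CM, 1 rose, Tek, at 2.18 CPM in IFNγ/LPS CM and 0.148 CPM in naive CM, while Pecam1 and Erg fell and Vwf missed the threshold. Of all genes, 36.1% rose and 35.8% fell in that comparison. Summed over 8 adventitial fibroblast markers, levels were 6717 to 7407 CPM in IFNγ/LPS CM, 1829 to 1984 CPM in naive CM and 1660 to 1928 CPM in regular medium, and Dcn and Ly6a made up most of each sum. Of the 8, 3 rose against naive CM, Dcn, Ly6a and Pdgfra, 4 fell, and Lum missed the threshold. The 4 that fell were Scara5, at 0.0762 CPM in IFNγ/LPS CM and 18.8 CPM in naive CM, Dpt, at 0.257 CPM in IFNγ/LPS CM and 9.87 CPM in naive CM, Pi16, at 0.191 CPM in IFNγ/LPS CM and 1.68 CPM in naive CM, and Cd34, at 2.59 CPM in IFNγ/LPS CM and 7.65 CPM in naive CM. The part of any of these cell types in the results was not tested.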

How the data were processed

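The 12 libraries, 4 per medium, measured polyadenylated RNA of primary smooth muscle cells from mouse aorta. Per the labels' protocols, the kit was Illumina Stranded mRNA Prep, and libraries were read on a NovaSeq X Plus as paired reads of 150 bases. Per the submitters' processing notes, Salmon 1.10.1 and build mm10 were used. The authors deposited estimated counts (expected counts) per gene as whole numbers, which were treated as rounded estimates; no source used here describes the step from transcripts to genes. The columns call the macrophage states M0 and M1. By common usage M0 was taken for naive and M1 for IFNγ/LPS, a reading that no label spells out and on which every direction rests. Symbols and coordinates came from GENCODE M21 on GRCm38, where 51344 of 55822 identifiers (92.0%) matched, and 3.53 to 5.86% of each library's counts lay on unmatched identifiers. Promoter windows came from RefSeq.

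Genes were filtered with filterByExpr, scaled by TMM and tested with edgeR 4.0.16 (R 4.3.3; robust quasi-likelihood F-test, two-sided, 1 model of 12 libraries, 9 residual degrees of freedom), and p-values were Benjamini-Hochberg adjusted over the 16140 genes tested, with a threshold of 0.05. SEs are approximate and were derived from the log2 fold change and its F value. Ratios were tested with SciPy 1.17.1 by exact permutation of libraries. Scripts were tested on simulated data. Libraries of the same number were not taken as paired: after subtracting group means, same-numbered libraries correlated at -0.0637 to 0.0679 (12 pairs), never above 0.1. No 2 libraries of a group agreed within counting noise (chi-square per degree of freedom 4.37 to 47.1 over 18 pairs).

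The 9 genes and the gene lists were chosen with earlier results of these data known. All 9 are named; from each list the text names up to 3 called genes with the largest change in each direction and at least 1 CPM in the higher group, and genes near the 9 by position or pattern. Alternatives were DESeq2 1.42.0, its size factors, library totals, no or a stricter filter, limma-voom (limma 3.58.1), fits restricted to 2 groups, a block for the replicate number, and omission of each library in turn. The exon-union length was added after the data were seen.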

Additional observations from a re-analysis of the deposited data

Results flagged for a closer look

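The ratio of Ifngr1 to Ifngr2 in naive CM had 1 library far from the other 3. The log2 ratios were 0.95, 0.94, 0.84 and 0.94, and the gap below replicate 3 was 0.902 of the group's range, past Dixon's 95% critical value of 0.829 for 4 libraries. Of 45 groups of 4 libraries searched, it was the only one past that value, and chance alone passes about 1 in 20. Replicate 3 was the shallowest library of its medium, with 28542613 counts, and whether depth has a part in the value was not tested.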

How the results depend on the processing

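Over 9 genes and 3 comparisons, 525 of the 540 fold changes recomputed under an alternative kept their direction and side of the threshold, 10 no longer passed the test and 5 changed sign. Scaling by library totals turned Ifngr1 to -0.14 against naive CM and -0.29 against regular medium, so that 1 gene was lower in each comparison and 8 were higher; it took the calls over all genes to 3279 higher and 9371 lower against naive CM and to 3279 and 9597 against regular medium, where TMM gave 5830 and 5781, and 5712 and 5882. The call of Ifngr1 in IFNγ/LPS CM against regular medium was lost with no filter (edgeR adjusted p = 0.0982), with a stricter filter (0.0539), with only the 2 groups (0.107), and without 7 libraries in turn: IFNγ/LPS CM replicate 1 (0.111) or 2 (0.171), naive CM replicate 2 (0.0591), 3 (0.0582) or 4 (0.0638), or regular medium replicate 3 (0.127) or 4 (0.0964). Leaving out each library moved Tyk2 in naive CM against regular medium between -0.029 and 0.072, never past the test. In the same comparison it moved the log2 ratio difference of Tyk2 to Jak1 between -0.064 and 0.061 and of Irf9 to Stat2 between -0.052 and 0.040, and in IFNγ/LPS CM against regular medium that of Tyk2 to Jak1 between -0.12 and 0.0023. No ratio passed without a library (0 in each comparison), since 4 against 3 cannot go below p = 0.0571, nor with the replicate number as a block (0 in each), since 4 pairs cannot go below 0.125 by exact permutation; these designs say nothing of stability. With the replicate block, the edgeR fit again called 9, 9 and 3 of the 9 genes higher and 0, 0 and 2 lower. Among lists, library totals gave 5 brakes higher and 10 lower in both comparisons with IFNγ/LPS CM. They also gave 7 relatives lower against regular medium. No filter gave 6 relatives lower against naive CM, where 6244 of 29446 genes were lower. Depth was not limiting for the 9 genes, which had at least 603 counts in every library. Most of the interferon genes had none, and whether depth has a part in that was not tested.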
